A study of Mus musculus with 246 samples.

Results

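The comparison described here asked how the adult brain transcriptome of male mice raised under early life adversity (ELA) differed between animals whose dams had received SAFit2 and animals whose dams had received the empty carrier, taken over the brain as a whole and not in 1 region at a time. It comprised 14 ELA_SAFit2 and 14 ELA_Veh animals, 7 of each in the NoInteraction set and 7 of each in the SocialInteraction set. For each animal number the counts of 5 regions were added up: the ventral hippocampus (vHipp), the dorsomedial part of the thalamus (DMT), the amygdala's basolateral nuclei (BLA), and, in cortex, the anterior cingulate (ACC) and medial prefrontal (mPFC) areas. The comparison therefore used 140 bulk RNA sequencing samples, with the animal as the unit, and the other samples of the series were 65 of the same regions from unstressed animals and 41 from the nucleus accumbens. The nucleus accumbens (Nacc) was left out of the sums, because 8 of its 28 ELA samples resembled the other regions of a different animal more than those of their own.

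All 28 animals were outbred CD1 mice that had been reared with little bedding and nesting material from the second to the ninth day after birth, vehicle animals included. The dam received a single subcutaneous depot of SAFit2 gel, or of gel without drug, on the second day, and the pups were exposed through her. Littermates thus shared a treatment, the labels do not give the litter, and litter and treatment cannot be told apart. The paper's design mixed the conditions within cages from weaning, and the labels do not give the cage. The p-values below treat every animal as independent. SocialInteraction animals had met an unfamiliar mouse for 10 min before tissue collection and NoInteraction animals had not. The unstressed Ctrl_Veh animals (13, giving 65 samples) were used only to place the levels. Each regional library held between 20804219 and 38210924 counts, and each animal's sum between 132593473 and 162691356. Of 205 regional libraries, 204 matched the other regions of their own animal over 60 genes that vary between animals. The exception was the ACC library of SAFit2 animal 95 (SocialInteraction), whose correlation with its own animal was 0.48 against 0.692 with SAFit2 animal 47. Leaving that library out of the sum, an alternative chosen after seeing the data, gave the same 3 called genes.

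SAFit2 is a selective inhibitor of FKBP51, the protein encoded by Fkbp5. FKBP51 is a co-chaperone that, together with HSP90, holds the glucocorticoid receptor in a state of low hormone affinity and slows its move to the nucleus. The receptor in turn induces Fkbp5, which closes a short negative feedback loop, and this loop is widely studied in stress research because it sets how strongly cells answer to corticosterone.

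Few genes differed over the 5 regions. Of 16393 protein-coding genes tested, 3 passed at an adjusted p under 0.05 (0.0183%, edgeR quasi-likelihood test with the set as covariate and Benjamini-Hochberg adjustment), and each was lower in ELA_SAFit2: Slc2a2, Tmsb15b1 and Fstl1. At an unadjusted p under 0.05 there were 1018 genes (6.21%), 598 higher (3.65%) and 420 lower (2.56%). The log2 fold changes of all genes had a median of 9e-04 and an SD of 0.124, so most genes lay in a narrow range around 0. For scale, the same fit called 1258 genes between the SocialInteraction and NoInteraction sets. The 3 calls depended on the regions summed: 0 genes passed without the DMT (1013 at an unadjusted p under 0.05) and 1 without the BLA. With the Nacc added, 0 passed (916). They depended on the model as well: DESeq2 called 16 genes. With runs of 8 animal numbers as a replicate block, 0 passed (1281 at an unadjusted p under 0.05). What such runs mark is not given by the labels.

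**Figure D1:**
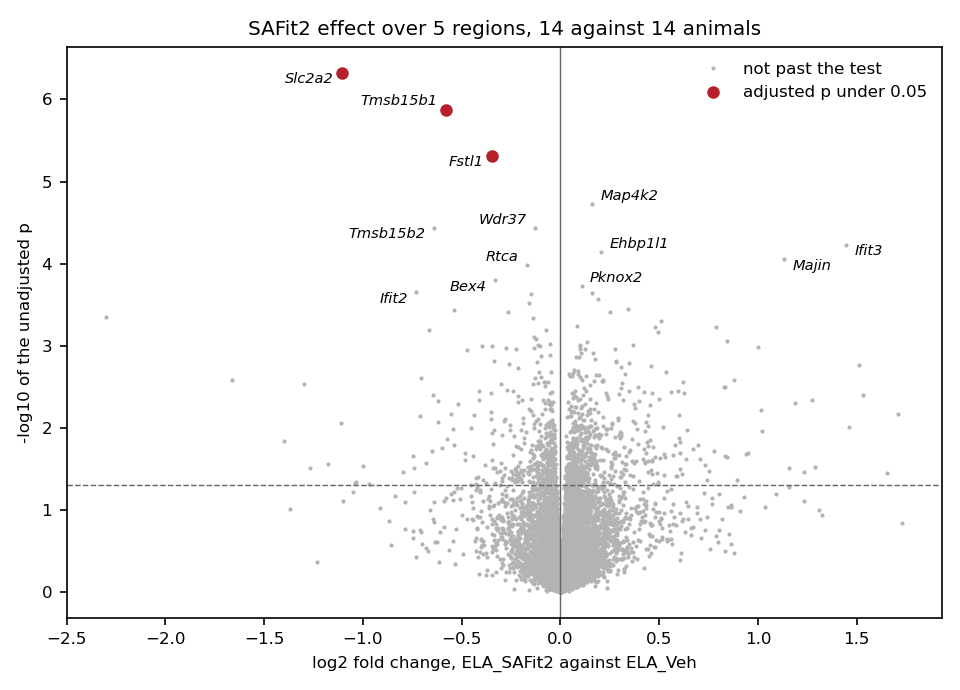
Each point is 1 of 16393 genes, with the log2 fold change of ELA_SAFit2 against ELA_Veh on the x axis and -log10 of the unadjusted edgeR p on the y axis (14 against 14 animals, 5 regions summed, dashed line at the unadjusted threshold). The 3 red points, all left of 0, are the genes past the adjusted test, and the names mark the 13 genes with the smallest p.

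Slc2a2 encodes GLUT2, the facilitative glucose transporter best known from liver and pancreatic beta cells, and it had the smallest p. It was a very low transcript in these tissues. Its level was 0.0671, 0.0996 and 0.141 CPM (counts scaled to the size of the library; lowest, median and highest animal) in ELA_Veh and 0.0218, 0.0394 and 0.0829 CPM in ELA_SAFit2. All 14 SAFit2 animals lay below the vehicle median of their own set, and 2 lay inside the vehicle range of their set. The log2 fold change was -1.11 (SE 0.17, edgeR adjusted p = 0.00778), a ratio of 0.464. It was -1.08 (SE 0.243) in NoInteraction and -1.13 (SE 0.246) in SocialInteraction.

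The reads behind Slc2a2 were few. Over all 5 regions a vehicle animal had 9 to 21 counts and a SAFit2 animal 3 to 11, in all 193 counts against 90. In the DMT the 14 vehicle animals had 49 counts and the 14 SAFit2 animals 9, with 7 SAFit2 animals at 0. In the BLA the totals were 58 against 23, in the ACC 30 against 14, in the mPFC 37 against 24, and in the vHipp 19 against 20. The DMT therefore carried 25.4% of the vehicle counts of Slc2a2 and 10.0% of the SAFit2 counts, and without it the log2 fold change was -0.85 (adjusted p = 0.214). With the log2 CPM averaged over regions in limma, it was -0.49 (adjusted p = 0.0485). No single region had enough reads to enter the regional test. Unstressed Ctrl_Veh animals had 0.0143, 0.0549 and 0.0928 CPM of Slc2a2, and the log2 fold change of ELA_Veh against Ctrl_Veh was 0.89 (SE 0.201, edgeR adjusted p = 0.17).

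Tmsb15b1 belongs to the beta-thymosins, small peptides that bind actin monomers and keep them from polymerising. Its level was 0.744, 1.25 and 1.53 CPM in ELA_Veh (lowest, median, highest) and 0.622, 0.766 and 0.865 CPM in ELA_SAFit2. The SAFit2 animals formed a narrow band at the bottom of the vehicle range: all 14 were below the vehicle median of their set, and 6 were within the vehicle range of their set. The log2 fold change was -0.58 (SE 0.095, edgeR adjusted p = 0.0109), a ratio of 0.669. It was -0.75 (SE 0.127) in NoInteraction, where 1 vehicle animal at 0.801 CPM lay within the SAFit2 band and the other vehicle animals were at 1.23 CPM or more. It was -0.40 (SE 0.128) in SocialInteraction, and the difference between the sets had an unadjusted p of 0.0626. Ctrl_Veh animals spread over 0.673, 0.929 and 1.44 CPM, so unstressed animals occupied both the low and the high levels (ELA_Veh against Ctrl_Veh log2 0.23, SE 0.107, edgeR adjusted p = 0.714).

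The lower level of Tmsb15b1 was found in every region. The log2 fold change was -0.64 in mPFC, -0.60 in ACC, -0.62 in BLA, -0.57 in DMT and -0.49 in vHipp, each with an unadjusted p under 0.05 (14 against 14 animals, edgeR). These are the same animals in every region and no independent repeats. In bulk tissue, fewer cells of a type and less RNA per cell cannot be told apart.

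Tmsb15b1 lies on chromosome X among near-identical copies, and 2 of them had log2 fold changes of similar size. Tmsb15b2 had 1.08, 2.22 and 2.86 CPM in ELA_Veh and 0.98, 1.25 and 1.51 CPM in ELA_SAFit2 (log2 -0.64, SE 0.131, edgeR adjusted p = 0.102). It did not pass over both sets together but passed within NoInteraction, and the difference between its sets had an unadjusted p of 0.00675. Tmsb15l, added after its values were seen, had 0.459, 1.08 and 1.62 CPM against 0.393, 0.643 and 0.889 CPM (log2 -0.67, SE 0.173, adjusted p = 0.367). Because the gene models overlap and share sequence, reads could be split between them by the estimation step, and the share of each copy is uncertain. With the copies added up as 1 gene, an alternative chosen after seeing the data, the log2 fold change was -0.63 (SE 0.116) with an adjusted p of 0.0523.

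The promoter windows of these copies show how alike they are and what a reader would look for upstream of a gene in a glucocorticoid receptor experiment. The windows are the 250 bases before the start in RefSeq (build GRCm38.p6), on the minus strand, at chrX:136976875-136977124 for Tmsb15b1 and chrX:136957980-136958229 for Tmsb15b2, with matches of AGAACA, the core hexamer bound by the glucocorticoid receptor and related steroid receptors, in capitals.
Tmsb15b1: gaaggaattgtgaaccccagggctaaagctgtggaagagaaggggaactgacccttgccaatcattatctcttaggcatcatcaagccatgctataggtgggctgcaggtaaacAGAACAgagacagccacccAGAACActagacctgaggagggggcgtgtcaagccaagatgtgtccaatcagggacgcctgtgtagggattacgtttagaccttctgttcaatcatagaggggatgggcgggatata
Tmsb15b2: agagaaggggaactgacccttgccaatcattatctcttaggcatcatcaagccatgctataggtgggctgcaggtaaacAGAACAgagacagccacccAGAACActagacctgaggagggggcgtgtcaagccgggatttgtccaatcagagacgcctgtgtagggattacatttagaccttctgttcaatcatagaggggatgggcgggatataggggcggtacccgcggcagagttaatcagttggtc
An overlapping stretch of the full RefSeq windows was alike at 257 of 265 aligned bases (97%), and the RefSeq window of Tmsb15l was that of Tmsb15b1. Each window held AGAACA at 2 places, counting both strands, a hexamer that 16.1% of 32851 mouse promoter windows of this length contain. The full palindrome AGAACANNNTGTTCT occurred in 3 windows genome-wide (0.00913%) and in none of the windows of Slc2a2, Tmsb15b1, Tmsb15b2, Fstl1 or Fkbp5. The 250-base windows of Slc2a2, Fstl1 and Fkbp5 also held no AGAACA. These letter matches are a description only.

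Fstl1 encodes follistatin-like 1, a secreted glycoprotein that binds ligands of the TGF-beta and BMP family. It was by far the most abundant of the 3 called genes, with 103037 counts over the vehicle animals and 82611 over the SAFit2 animals. Its level was 43.5, 53.6 and 63.4 CPM in ELA_Veh and 33, 41.3 and 52.4 CPM in ELA_SAFit2. Again all 14 SAFit2 animals were below the vehicle median of their set, while 6 were within the vehicle range of their set. The log2 fold change was -0.35 (SE 0.061, edgeR adjusted p = 0.0264), a ratio of 0.787. It was -0.28 (SE 0.086) in NoInteraction and -0.41 (SE 0.086) in SocialInteraction.

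By region the log2 fold change of Fstl1 was -0.35 in mPFC, -0.27 in ACC, -0.31 in BLA, -0.39 in DMT and -0.29 in vHipp, each with an unadjusted p under 0.05. The DMT gave 35.1% of all vehicle counts of the gene, more than any other region. Ctrl_Veh animals had 39.4, 49.2 and 59 CPM, between the ELA groups (ELA_Veh against Ctrl_Veh log2 0.16, SE 0.067, edgeR adjusted p = 0.675). The call was the least stable of the 3: it was lost when any 1 of 11 of the 28 animals was left out, with adjusted p up to 0.0703 and log2 values from -0.34 to -0.33 in those fits. Markers of meningeal and perivascular fibroblasts, cells that express Fstl1, had a summed level of 96.1, 164 and 233 CPM in ELA_Veh and 97.2, 145 and 287 CPM in ELA_SAFit2, with 11 of 13 members above 0 and none passing. Their part in the level of Fstl1 was not tested.

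**Figure D2:**
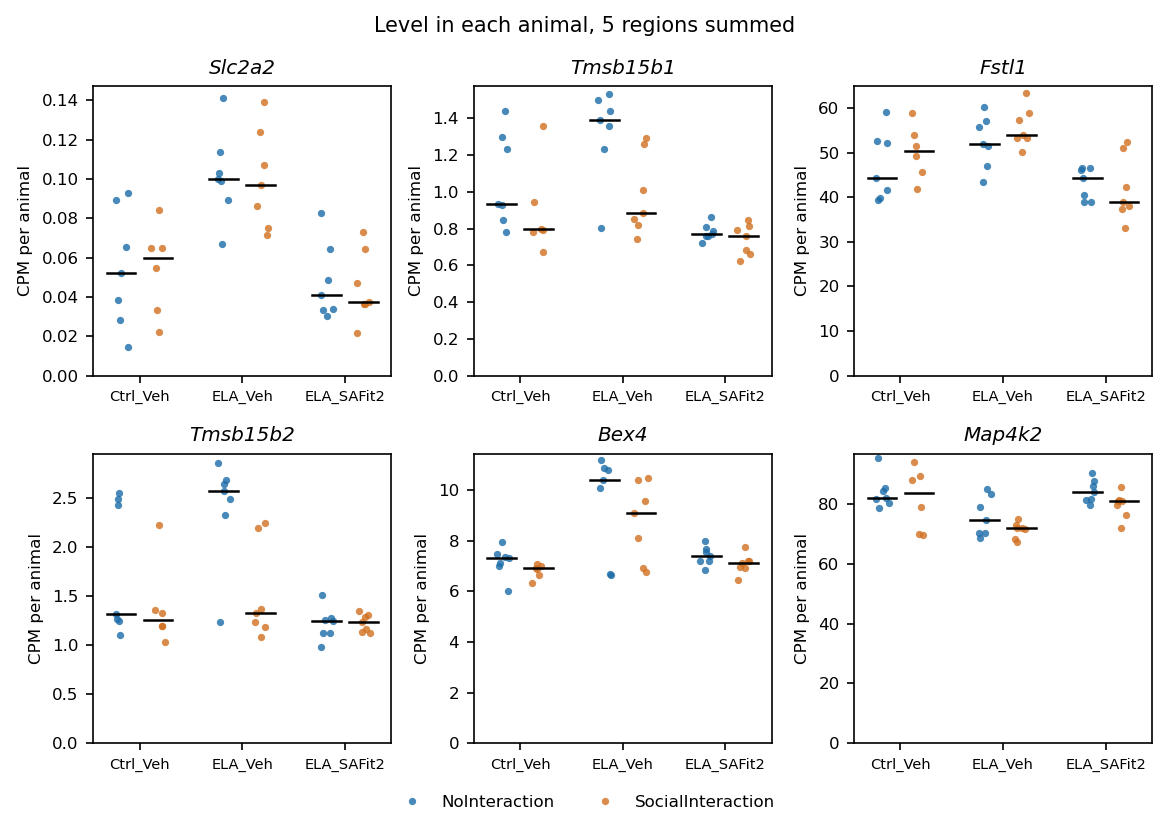
Each point is 1 animal's CPM over 5 summed regions, by group (Ctrl_Veh, ELA_Veh, ELA_SAFit2) and set (colour), and each bar is a median. In Slc2a2, Tmsb15b1 and Fstl1, the genes past the test, all 14 SAFit2 points lie below the vehicle median of their set, and in Tmsb15b2 and Bex4 the SAFit2 points form 1 low band while vehicle points fall at a low and a high level.

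Among the 20 genes with the smallest p, which include the 3 called ones, 12 were lower and 8 higher after SAFit2. The other 17 did not pass (highest adjusted p 0.305), so their values are given as measured and not as changes. Of the 17 leading genes with enough reads in all 5 regions, 17 had 1 sign in the 5 regions and 10 had an unadjusted p under 0.05 in each. Their selection on the sum of those regions favours this, so it is a description. The same selection favours SAFit2 animals all on 1 side of the vehicle median and groups without overlap. Such remarks on the leading genes are therefore descriptions too, and the share over all genes was not computed.

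The next in order was Map4k2, a kinase that acts upstream of JNK signalling. Its level was 67.3, 71.9 and 85 CPM in ELA_Veh and 72.1, 81.4 and 90.5 CPM in ELA_SAFit2 (log2 0.16, SE 0.031, edgeR adjusted p = 0.0772). All 14 SAFit2 animals were above the vehicle median of their set, and the sets gave 0.16 each (SE 0.044). Ehbp1l1, a partner of Rab8 in vesicle transport, had 21.5, 23.7 and 29.6 against 23.1, 27.9 and 30.7 CPM (log2 0.21, SE 0.044, adjusted p = 0.15), and in SocialInteraction its groups did not overlap. Majin, a protein that tethers telomeres to the nuclear membrane in meiosis, was a low transcript at 0.0305, 0.077 and 0.239 against 0.0626, 0.224 and 0.293 CPM (log2 1.13, SE 0.247, adjusted p = 0.162).

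Several leading genes were abundant transcripts with small differences. Wdr37, a WD repeat protein, had 73.1, 79.3 and 88.8 CPM in ELA_Veh and 67.6, 72.7 and 79 CPM in ELA_SAFit2 (log2 -0.13, SE 0.026, edgeR adjusted p = 0.102). Rtca, an RNA cyclase, had 36.7, 42.1 and 45.1 against 32.1, 38.1 and 39.4 CPM (log2 -0.17, SE 0.037, adjusted p = 0.17). Rragd, a Rag GTPase that signals amino acid supply to mTORC1, had 104, 118 and 134 against 120, 132 and 149 CPM (log2 0.16, SE 0.037, adjusted p = 0.257). The homeobox gene Pknox2 stood at log2 0.11 (SE 0.025, adjusted p = 0.254), Siah3 at -0.15 (SE 0.035, adjusted p = 0.257) and Msantd1 at -0.16 (SE 0.039, adjusted p = 0.293). In these genes the groups overlapped. All 14 SAFit2 animals lay on the same side of their vehicle median in Rtca, Rragd, Pknox2, Siah3 and Msantd1, which selection by the smallest p favours.

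Adcyap1 encodes the neuropeptide PACAP, which acts in central stress circuits. Its level was 18.2, 22.6 and 26.4 CPM in ELA_Veh and 21.7, 26.1 and 27.6 CPM in ELA_SAFit2 (log2 0.19, SE 0.046, edgeR adjusted p = 0.278), with the largest regional value, 0.28, in the DMT. Aldh1a1, which makes retinoic acid from retinaldehyde, had 9.42, 11.7 and 16.5 against 11.1, 14.7 and 20.4 CPM (log2 0.34, SE 0.085, adjusted p = 0.305). Its difference lay in the DMT (0.53) and the vHipp (0.45) and was near 0 in ACC (0.02) and BLA (0.02). The X-linked predicted gene Gm14569 had 0.22, 0.36 and 0.51 against 0.167, 0.249 and 0.407 CPM (log2 -0.54, SE 0.133, adjusted p = 0.305), without overlap in NoInteraction.

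**Figure D3:**
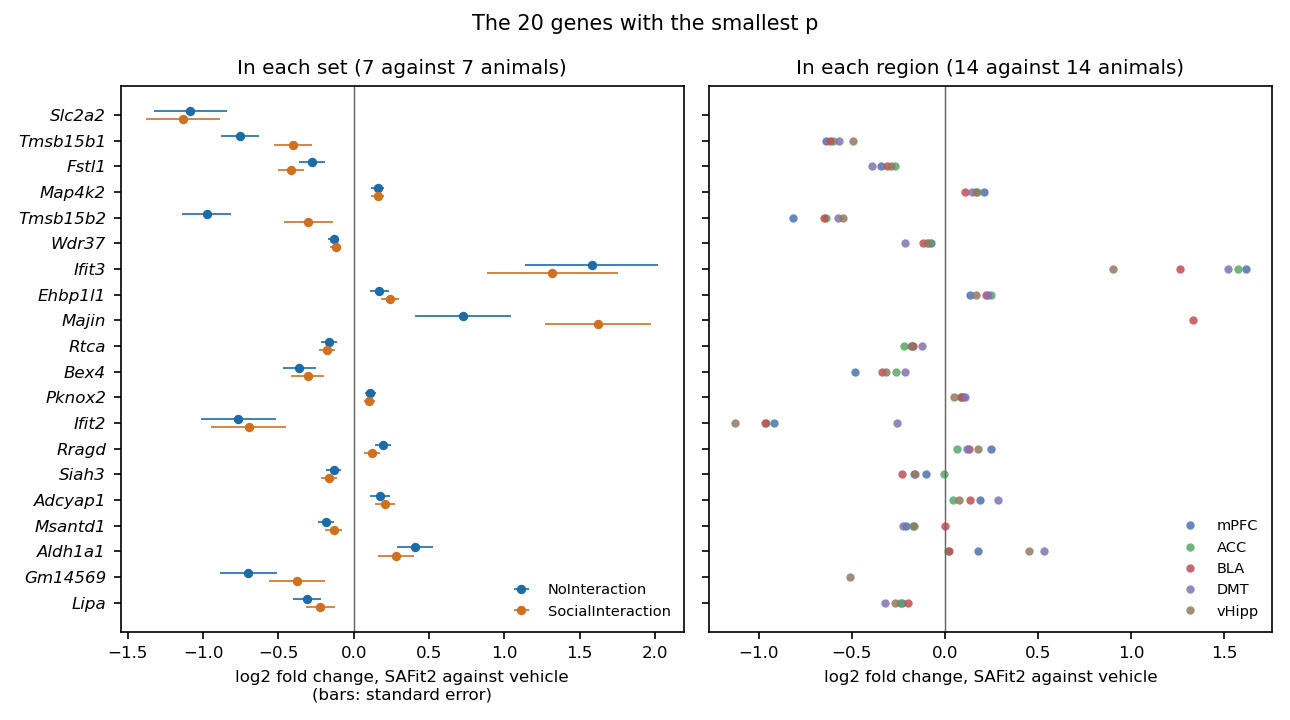
Log2 fold change of ELA_SAFit2 against ELA_Veh for the 20 genes with the smallest p, in each set on the left (7 against 7 animals, bars are the SE) and in each region on the right (14 against 14 animals). The signs are the same in both sets for all 20 genes, and Ifit3 and Majin show the largest positive and Slc2a2 and Ifit2 the largest negative values over both sets.

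A closer look at single animals showed that several leading genes did not shift as a group but took separate levels. Bex4, a brain-expressed X-linked gene of a family linked to neurotrophin receptor signalling, had 6.67, 9.86 and 11.2 CPM in ELA_Veh and 6.46, 7.2 and 8.01 CPM in ELA_SAFit2 (log2 -0.33, SE 0.076, edgeR adjusted p = 0.239). The CPM levels used here and below to split animals were all chosen after the values were seen. Above 9 CPM of Bex4 were 9 of 14 vehicle animals, 0 of 14 SAFit2 animals and 0 of 13 Ctrl_Veh animals. Against Ctrl_Veh, whose levels were 6.0, 7.0 and 7.94 CPM, ELA_Veh stood at log2 0.39 (SE 0.068, edgeR adjusted p = 0.0108). The other members of the family that were looked up, Bex1, Bex2 and Bex3, had log2 values of -0.04 each.

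Tmsb15b2 likewise had a high and a low level. Above 2 CPM were 6 of 7 NoInteraction and 2 of 7 SocialInteraction vehicle animals, 0 of 14 SAFit2 animals and 4 of 13 Ctrl_Veh animals. The high level was thus present in unstressed mice too. Of the vehicle animals, 6 were high in both Tmsb15b2 and Bex4, 2 in Tmsb15b2 alone, 3 in Bex4 alone and 3 in neither.

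The interferon-induced genes Ifit2 and Ifit3, which encode neighbouring antiviral RNA-binding proteins on chromosome 19, had log2 fold changes of opposite sign. Ifit2 had 10.2, 21.5 and 32 CPM in ELA_Veh and 8.7, 11.9 and 23.9 CPM in ELA_SAFit2 (log2 -0.73, SE 0.173, edgeR adjusted p = 0.257). Ifit3 had 0.143, 0.602 and 1.4 CPM in ELA_Veh and 0.662, 1.42 and 2.9 CPM in ELA_SAFit2 (log2 1.45, SE 0.306, adjusted p = 0.139), and its groups did not overlap in NoInteraction. Above 15 CPM of Ifit2 were 11 of 14 vehicle, 3 of 14 SAFit2 and 6 of 13 Ctrl_Veh animals. In NoInteraction the 4 vehicle animals with 30.2 CPM of Ifit2 or more had 0.181 to 0.267 CPM of Ifit3, below the other 3 vehicle animals (0.798 to 0.947 CPM). This did not hold for every animal: SAFit2 animal 39 of the same set had 20.7 CPM of Ifit2 and 2.62 CPM of Ifit3, the highest of its group.

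The levels of both genes went with the animal across its regions. After removal of group means, the level of Ifit2 in 1 region correlated with that in another at a mean r of 0.84 over 10 pairs of regions, and Ifit3 at 0.63. The median over all genes was 0.12, and 830 genes (5.06%) were over 0.5, compared with 132 (13%) of the genes at an unadjusted p under 0.05. Lipa (0.64), Rtca (0.56) and Wdr37 (0.54) were also over 0.5, whereas Slc2a2 stood at 0.02, Tmsb15b1 at 0.28 and Fstl1 at 0.34. The points share animals, and no p is given.

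The upstream windows of Ifit2 and Ifit3 are shown as a description, and their part in the opposite signs was not tested. They are the 250 bases before the start in RefSeq (GRCm38.p6, plus strand), chr19:34550444-34550693 for Ifit2 and chr19:34583279-34583528 for Ifit3, with matches of GAAANNGAAA, the core of the interferon response element, on either strand in capitals.
Ifit2: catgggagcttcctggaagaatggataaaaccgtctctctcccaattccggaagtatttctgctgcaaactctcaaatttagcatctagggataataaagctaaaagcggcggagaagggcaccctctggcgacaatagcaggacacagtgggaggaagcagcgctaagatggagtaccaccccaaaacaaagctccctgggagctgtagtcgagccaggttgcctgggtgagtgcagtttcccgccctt
Ifit3: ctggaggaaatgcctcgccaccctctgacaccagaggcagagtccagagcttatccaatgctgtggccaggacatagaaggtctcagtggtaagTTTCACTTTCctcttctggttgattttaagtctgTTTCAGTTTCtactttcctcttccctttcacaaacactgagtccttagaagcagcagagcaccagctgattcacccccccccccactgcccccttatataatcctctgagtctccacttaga
The Ifit3 window had 2 matches, as had those of Ifit1 and Ifit3b, and the Ifit2 window had none. Over all windows 2.98% hold the motif. Sequence outside the 250-base windows was not searched, and neither were the windows of the related genes Ifit1bl1 and Ifit1bl2. These letter matches are thus no more than a description. Ifit1 (log2 0.24, SE 0.152) and Ifit3b (0.07, SE 0.097), looked up after the values were seen, had edgeR adjusted p of 0.894 and 0.981. Ifit1bl2, looked up in the same way, stood at 1.01 (SE 0.342, unadjusted p = 0.00617, edgeR adjusted p = 0.578) and had an unadjusted p under 0.05 in each of the 5 regions.

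Of the 30 genes with the smallest p, 13 had another of the 30 within 1 Mb, in 4 clusters (GENCODE M21 order). They were Rnaseh2c, Ehbp1l1, Majin and Map4k2 on chromosome 19, Lipa, Ifit2 and Ifit3 on the same chromosome, Col26a1 and Ift22 on chromosome 5, and Bex4 with the Tmsb15 copies on chromosome X. Chromosome 19 held 8 of the 30 against 3.37% of all tested genes, and chromosome X 5 against 3.54%. The chromosome X genes include Tmsb15b1, Tmsb15b2 and Tmsb15l, whose gene models overlap and may share reads. How often tested genes in general have such neighbours was not computed, so the clusters are a description. Within the Ifit cluster, Lipa, the lysosomal acid lipase, had 19.8, 26.8 and 31.3 CPM in ELA_Veh and 18.6, 20.9 and 25.6 CPM in ELA_SAFit2 (log2 -0.27, SE 0.066, edgeR adjusted p = 0.305), with all 14 SAFit2 animals below their vehicle median. Within the first cluster Map4k2, Ehbp1l1 and Majin were above 0 and Rnaseh2c was below (log2 -0.14, SE 0.035).

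**Figure D4:**
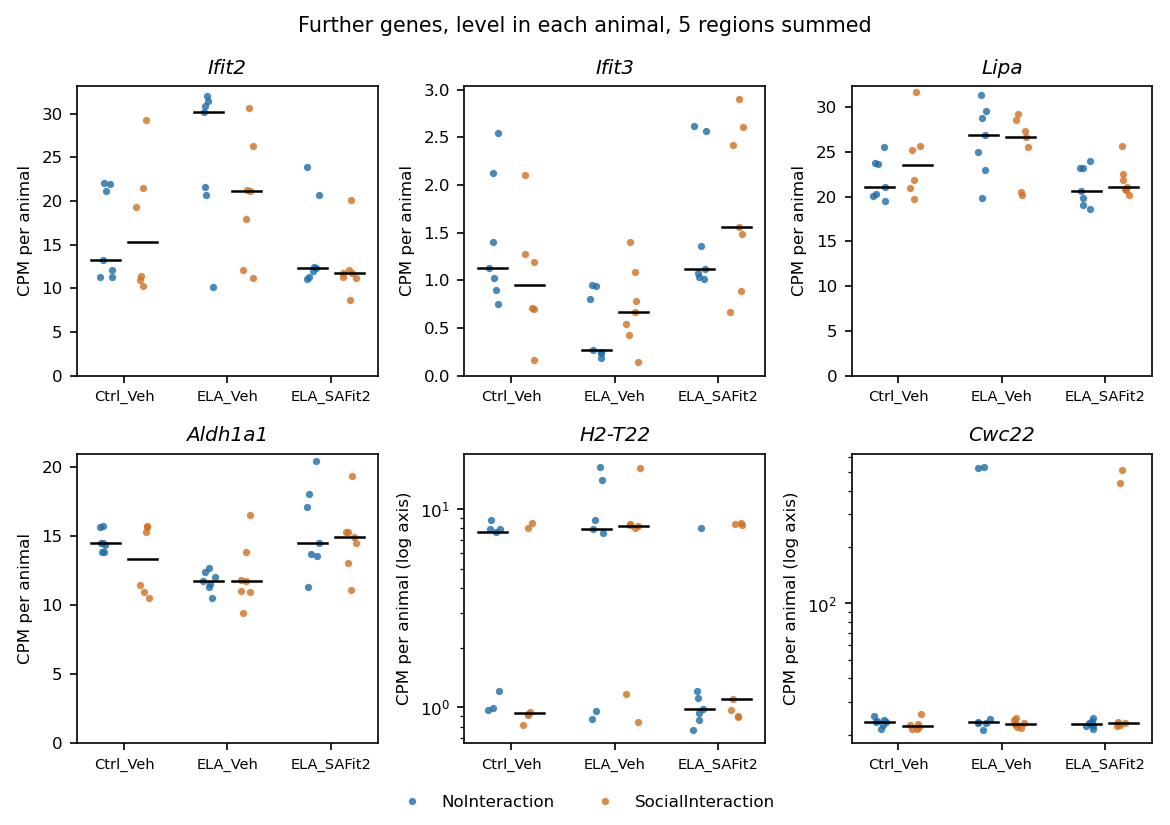
Each point is 1 animal's CPM over 5 summed regions, by group and set (colour), with medians as bars and log axes for H2-T22 and Cwc22. Ifit2, H2-T22 and Cwc22 show separate levels within a group, with 2 of 7 NoInteraction vehicle animals and 2 of 7 SocialInteraction SAFit2 animals over 100 CPM in Cwc22.

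Taken set by set, the NoInteraction comparison called 2 of 16393 genes (0.0122%; 758 at an unadjusted p under 0.05, 4.62%), Tmsb15b1 and Tmsb15b2, and the SocialInteraction comparison called 0 by edgeR (714, 4.36%). DESeq2 called 1 gene in SocialInteraction, Fstl1. The difference between the sets passed for 0 genes by edgeR (527 at an unadjusted p under 0.05, 3.21%) and for 6 by DESeq2, so a larger response in either set is not shown. Genes at an unadjusted p under 0.05 in NoInteraction had the same sign in SocialInteraction in 65.6% of 758 cases, against 53.8% of all genes, and in the reverse direction 66.1% of 714. There were 80 genes at an unadjusted p under 0.05 in both sets, 68 of them with the same sign. Over all 16393 genes the log2 fold changes of the sets had a Pearson r of -0.152, given as a description with no p. It includes Cwc22 and the similar genes of the next paragraph, which had large values of opposite sign. Gm13693, for example, stood at -6.90 in NoInteraction and 6.29 in SocialInteraction, where the SD over all genes was 0.198 and 0.196. The r without these genes was not computed. The sets hold different animals, which may nonetheless be littermates.

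The 6 genes whose sets differed by DESeq2 were Cwc22, a spliceosome factor, and the similar predicted genes Gm13693, Gm13694, Gm13696, Gm13697 and Gm13698. They rest on 4 animals: 2 of 7 vehicle animals in NoInteraction and 2 of 7 SAFit2 animals in SocialInteraction were over 100 CPM in Cwc22, and 0 of 13 Ctrl_Veh animals were. The highest values were 536 CPM in ELA_Veh and 512 CPM in ELA_SAFit2, while the group medians were 23.1 and 23 CPM. Within the sets the log2 fold changes of Cwc22 were -2.88 (SE 0.877) and 2.73 (SE 0.873). By edgeR the smallest p of the difference belonged to B430218F22Rik, at log2 -0.51 (SE 0.124) in NoInteraction and 0.37 (SE 0.124) in SocialInteraction, and its adjusted p was 0.186 or more.

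Tested singly, none of the 5 regions had a gene past the adjusted edgeR test. At an unadjusted p under 0.05 there were 1003 genes in mPFC (6.77%), 1033 in ACC (7%), 500 in BLA (3.32%), 680 in DMT (4.55%) and 808 in vHipp (5.47%). DESeq2 called 12, 7, 4, 1 and 1 genes in the same order. The cortical regions thus gave the most genes at the unadjusted level and the BLA the fewest. These shares lay on both sides of the 0.05 that the threshold gives where no gene differs. The regions were not tested against each other, so the order is a description.

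Neither the target of SAFit2 nor its receptor partner passed the test at the RNA level. Fkbp5 had 31.7, 36.7 and 45.6 CPM in ELA_Veh and 26.9, 35.7 and 50 CPM in ELA_SAFit2 (log2 -0.07, SE 0.047, edgeR adjusted p = 0.897). Nr3c1, the glucocorticoid receptor, had 106, 119 and 128 against 99.9, 116 and 123 CPM (log2 -0.04, SE 0.029, adjusted p = 0.911). Of 16 genes for FKBP51, the receptor and its chaperones, none had an unadjusted p under 0.05. Their log2 values ran from -0.07 to 0.03 with 14 below 0 and a median of -0.01, beside 0.00 (0.001) over all genes. Of 22 genes that glucocorticoids induce, none had an unadjusted p under 0.05 (7 above 0, 14 below, median -0.02). In the corticotropin-releasing hormone system 1 of 6 did, the receptor Crhr1 at log2 0.19 (SE 0.064, adjusted p = 0.581), with 10.5, 13.4 and 17.8 CPM in ELA_Veh and 12.9, 14.5 and 18.6 CPM in ELA_SAFit2.

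The study singled out 10 genes across regions, chosen on samples of this series with 7 animals per condition and the Nacc included. Only the NoInteraction set had 7 Ctrl_Veh animals (SocialInteraction had 6), and the paper describes basal conditions. The study's choice thus matches the NoInteraction animals, and the NoInteraction values below repeat that choice. Of these, 7 had an unadjusted p under 0.05 here, which is not independent evidence. Within NoInteraction all of the 7 but Ifit1bl1 (edgeR unadjusted p = 0.0604) were under 0.05. Within SocialInteraction Ifit3 (0.00536) and Ifit2 (0.00951) were. H2-T22 (0.281), Abcb1b (0.403), Ifit1bl1 (0.252), Sp6 (0.522) and Tlr1 (0.544) were not. Cwc22, also among the 10, had log2 -2.88 in NoInteraction and 2.73 in SocialInteraction. H2-T22, an MHC class I gene, had 0.843, 8.09 and 16.3 CPM in ELA_Veh and 0.77, 1.04 and 8.49 CPM in ELA_SAFit2 (log2 -1.40, SE 0.537, edgeR adjusted p = 0.669). Its animals fell at separate levels, with 10 of 14 vehicle, 4 of 14 SAFit2 and 6 of 13 Ctrl_Veh animals above 4 CPM. Abcb1b, a drug efflux pump, had 0.684, 0.826 and 2.46 against 0.516, 2.15 and 3.86 CPM (log2 0.71, SE 0.296, adjusted p = 0.707). Ifit1bl1, another interferon-induced gene, stood at log2 1.23 (SE 0.557, adjusted p = 0.747), Sp6 at -0.74 (SE 0.327), Tlr1 at -0.97 (SE 0.47), Best1 at 0.73 (SE 0.376) and Zfp984 at -0.59 (SE 0.411).

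In the immune lists no member passed the adjusted test, and 13.3 to 25% of the members had an unadjusted p under 0.05, beside 6.21% of all genes. Ifit2, Ifit3, Ifit1bl1, H2-T22 and Tlr1 among them are genes the study had chosen on samples of this series. These counts are thus not independent of that choice, and small neuronal lists reached similar shares. Among 28 interferon-stimulated genes 3 were higher (Ifit3, Ifit1bl1 and Mx1, log2 0.25, SE 0.114) and 1 lower (Ifit2), with a median of 0.04. Among 16 MHC class I and antigen presentation genes 1 was higher, H2-D1 (log2 0.31, SE 0.133), and 2 were lower, H2-T22 and H2-T23 (-1.11, SE 0.393). Of 12 Toll-like receptors 3 were lower, Tlr1, Tlr5 (-0.19, SE 0.067) and Tlr6 (-0.31, SE 0.136). Of 15 complement genes 2 were lower, the C1 proteases C1ra (-0.71, SE 0.212) and C1s1 (-0.80, SE 0.359). The median fold change of these last 3 lists was within 0.01 of 0.

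Microglia and macrophage markers lay mostly above 0, 16 of 18, with a median log2 of 0.05. At an unadjusted p under 0.05 were 3 higher, among them Tmem119 (0.17, SE 0.051) and Aif1 (0.45, SE 0.174), and 1 lower, the phagocytic receptor Trem2 (-0.19, SE 0.087). Their summed level was 293, 317 and 359 CPM in ELA_Veh and 313, 326 and 354 CPM in ELA_SAFit2, so the groups overlapped almost wholly. The part of such shifts in other genes was not tested. All 18 oligodendrocyte and myelin markers lay below 0 (median -0.05, summed 3139, 4323 and 4844 against 3232, 3764 and 5496 CPM) and none had an unadjusted p under 0.05. No member had an unadjusted p under 0.05 among markers of astrocytes (16), oligodendrocyte precursors (7), endothelial and mural cells (20), choroid plexus (14) or red blood cells (5).

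Markers of tissue around the punches varied among animals more than between groups. Choroid plexus markers summed to 23.9, 548 and 1078 CPM in ELA_Veh and 27.5, 510 and 1307 CPM in ELA_SAFit2. Habenula markers, a nucleus next to the DMT, summed to 4.35, 18.4 and 34.6 against 4.2, 20.4 and 75.7 CPM, with 5 of 5 above 0 (median 0.56). Olfactory bulb markers had 6 of 6 above 0 (median 1.04), striatal markers 9 of 9 below 0 (-0.09) and thalamic markers 8 of 8 below 0 (-0.10), and none of these had an unadjusted p under 0.05. Thalamic markers summed to 715, 923 and 1244 against 579, 883 and 1036 CPM, and their part in the genes with DMT differences was not tested. Among hippocampal markers 1 of 8 was at an unadjusted p under 0.05, Lct (0.24, SE 0.098), and among cortical markers 1 of 8, Lamp5 (0.14, SE 0.051).

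Nuclear genes of energy metabolism lay mostly a little below 0. Of 74 nuclear genes of oxidative phosphorylation 10 were lower and none higher at an unadjusted p under 0.05, beside 2.56% lower among all genes, and 67 of 74 lay below 0 with a median of -0.02. Cox6c, a subunit of complex IV, had 96.5, 108 and 116 CPM in ELA_Veh and 89.3, 98.9 and 109 CPM in ELA_SAFit2 (log2 -0.10, SE 0.028, edgeR adjusted p = 0.368). Cox5a of the same complex stood at -0.10 (SE 0.028), Ndufa4 at -0.05 (SE 0.018) and Atp5a1, of the ATP synthase, at -0.03 (SE 0.011). The 13 mitochondrially encoded genes did not share this: 11 lay above 0 (median 0.03) and none had an unadjusted p under 0.05. Of 83 cytosolic ribosomal protein genes 63 lay above 0 (median 0.01). At an unadjusted p under 0.05 were 7.23% of them, near the 6.21% of all genes. These were 4 higher, among them Rps2 (0.19, SE 0.058), Rpl36 (0.09, SE 0.026) and Rplp0 (0.07, SE 0.022), and 2 lower, among them Rpl22l1 (-0.05, SE 0.017).

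In the neuronal receptor, channel and synapse lists no member passed the adjusted test, and the shares at an unadjusted p under 0.05 ran from 0 to 20%, beside 6.21% of all genes. Potassium channels had 5 of 85 members higher and 0 lower at an unadjusted p under 0.05, among them Kcnc4 (log2 0.13, SE 0.038), Kcnj4 (0.09, SE 0.029), Kcnh3 (0.09, SE 0.034) and Kcnb2 (0.12, SE 0.047). None of 25 glutamate and 25 GABA and glycine genes had an unadjusted p under 0.05. The serotonin receptors Htr7 (-0.16, SE 0.053) and Htr1a (0.12, SE 0.053) were 2 of 12, the dopamine receptor Drd5 (-0.19, SE 0.065) 1 of 5, and the muscarinic receptors Chrm5 (-0.30, SE 0.129) and Chrm3 (0.07, SE 0.031) 2 of 17. The synaptic adhesion genes Lrrtm4 (0.11, SE 0.039) and Lrrtm1 (-0.08, SE 0.037) were 2 of 10, and the neurotrophin receptor Ngfr (-0.42, SE 0.193) 1 of 8. None of 15 immediate early genes, which mark recent neuronal activity, had an unadjusted p under 0.05 (12 above 0, median 0.08, summed 387, 622 and 754 against 349, 630 and 877 CPM). The same was found for 16 clock genes, 9 heat shock and cold-inducible genes, 8 bestrophin and other anion channels, 5 Cwc22-like genes and 4 oxytocin and vasopressin genes. Adcyap1 was the single member of 17 neuropeptide precursors, and Abcb1b of 6 drug efflux transporters.

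**Figure D5:**
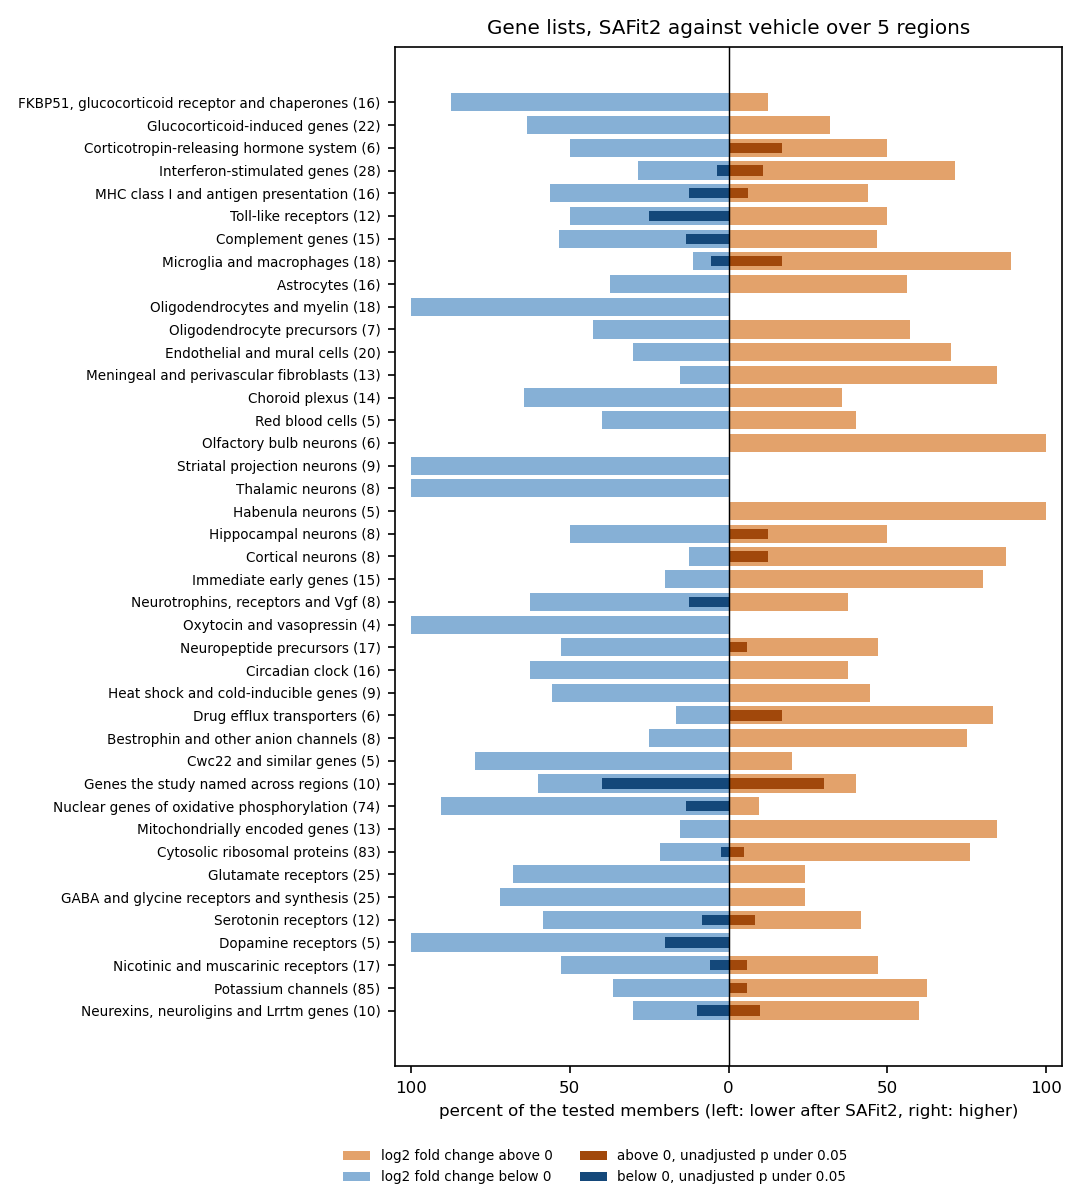
For each gene list (number of tested members in parentheses), the pale bars give the percent of members with a log2 fold change above 0 (right) or below 0 (left), and the dark bars those at an unadjusted p under 0.05, SAFit2 against vehicle over 5 regions. Pale bars lean wholly to 1 side in oligodendrocyte, striatal, thalamic, habenula and olfactory bulb markers and in the oxytocin and vasopressin genes, where no dark bar appears, and the longest dark bars belong to the genes the study named.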

How the data were processed

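RNA from 5 brain regions of 28 mice was analysed (poly-A RNA, stranded libraries). The authors deposited salmon estimated counts per gene for 56691 genes, and their processing notes name STAR, DESeq2 and GRCm39. The expected counts were rounded to whole numbers (12.12% of values were not whole at a tolerance of 1e-06) and summed over regions per animal. Gene types came from GENCODE M21 (52073 IDs matched) and RefSeq symbols (978 more), and 3640 untyped genes were left out. Of 21915 protein-coding genes, filterByExpr kept 16393. The test was edgeR 4.0.16 (R 4.3.3, TMM, glmQLFit, glmQLFTest, 25 residual degrees of freedom, common biological coefficient of variation 0.121) with the set as covariate. SE is the absolute log2 fold change divided by the square root of F. CPM came from the TMM sizes of 41 animals. The sets and their difference were tested in 1 fit with 4 group means, and ELA_Veh against Ctrl_Veh, which shares the ELA_Veh animals, in a fit of 41 animals.

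Alternatives comprised DESeq2 1.42.0, limma 3.58.1, other filters and scalings, left-out regions and animals, and blocks. On simulated data for the comparison of both sets (16393 genes), 89 of 100 genes changed by 0.5 and 99 of 100 changed by 1 on the log2 scale were recovered, and 8 unchanged genes were called. The simulated animals had no set effect, no litters and no separate levels within a group. These rates therefore do not cover genes whose animals fall at separate levels.

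Named genes were the 20 with the smallest p, Fkbp5, Nr3c1, the 10 genes of the study, up to 4 members of each of 41 lists by smallest p and 5 genes by the p of the difference between sets. A single list member that the rule names is not reported here. Others were chosen after their values were seen: AK157302, Bex1, Bex2, Bex3, Col26a1, Gm13697, Ifit1, Ifit1bl2, Ifit3b, Ift22, Rnaseh2c, Stom and Tmsb15l. The comparison, its members and the lists were chosen with earlier results of these data known.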

Additional observations from a re-analysis of the deposited data

Results flagged for a closer look

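Among 140 groups of 7 animals over 35 named genes, 13 had a single animal set apart from the rest by more than Dixon's critical value of 0.568, and chance alone gives about 1 such group in 20. In the NoInteraction vehicle group, the animal labelled ELA_Vehicle_NoInteraction_101 was low in both Tmsb15b1 (0.801 CPM, next 1.23) and Tmsb15b2 (1.24 CPM, next 2.33). In SocialInteraction SAFit2 animals, animal 23 was high in both chromosome 19 neighbours, Ifit2 (20.1 CPM, next 12.1) and Lipa (25.6 CPM, next 22.5). Fkbp5 was high in SAFit2 animal 63 of SocialInteraction (50 CPM, next 38.2), and Nr3c1 low in SAFit2 animal 15 of NoInteraction (99.9 CPM, next 117). Rtca was low in SAFit2 animal 71 (32.6 CPM, next 37.5) and Adcyap1 in ELA_SAFit2_NoInteraction_103 (21.7 CPM, next 25), both NoInteraction. Of the genes the study named, H2-T22 was high in animal 7 (8.01 CPM, next 1.21), Sp6 in animal 47 (2.22 CPM, next 0.709) and Tlr1 in animal 39 (1.67 CPM, next 0.425) of the NoInteraction SAFit2 group, and Best1 was low in ELA_SAFit2_SocialInteraction_111 (0.414 CPM, next 0.79). Gm13694 was high in SAFit2 animal 15 of NoInteraction (0.226 CPM, next 0.0755), at very few reads.

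The SAFit2 effect differed between the sets by DESeq2 for Cwc22 and its copies. The log2 fold change in SocialInteraction minus that in NoInteraction was 5.61 for Cwc22 (adjusted p = 0.00398), 10.6 for Gm13698 (0.00107), 13.3 for Gm13693 (0.00107), 8.84 for Gm13697 (0.0152), 13.6 for Gm13694 (0.0225) and 11.0 for Gm13696 (0.0118). In 4 of the 28 animals these genes were far above the rest, and by edgeR none of the differences passed.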

How the results depend on the processing

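The 3 genes called over both sets became 16 by DESeq2, 5 with all gene types, 5 with all 41 animals in the fit, 1 without the BLA, 0 without the DMT (1013 at an unadjusted p under 0.05) and 0 with the Nacc included (916). Leaving out 1 animal gave 2 to 6 calls, with 6 without vehicle animal 5, 5 without SAFit2 animal 15 and 6 without vehicle animal 91. Slc2a2 and Tmsb15b1 kept their call in 28 of 28 such fits, and Fstl1 in 17, losing it without vehicle animals 13, 37, 59 and 61, ELA_Vehicle_NoInteraction_101, ELA_Vehicle_SocialInteraction_107 and SAFit2 animals 23, 31, 47, 71 and 95. Over the other settings the adjusted p ran from 0.00174 to 0.214 for Slc2a2 (log2 fold change -1.32 without the vHipp to -0.49 with log2 CPM averaged over regions), from 6.69e-08 to 0.15 for Tmsb15b1 and from 1.08e-07 to 0.0964 for Fstl1. Within SocialInteraction DESeq2 called 1 gene, for the difference between sets 6, and by region 12 in mPFC, 7 in ACC, 4 in BLA, 1 in DMT and 1 in vHipp. The cause of these shifts was not tested. Of 63 named genes under 47 alternatives, 2 changed sign: Ngfr to 0.0262 without the BLA, and Lrrtm1 to 0.000176 without the DMT.

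Limma voom on the 140 single libraries, with the animal as a replicate block (consensus correlation 0.12), called 252 genes. The same 0.12 was applied to every gene. Among the called genes, Ifit1bl1, Ifit2 and Ifit3 had a mean r between regions of 0.93, 0.84 and 0.63, and Slc2a2 of 0.02. Where r was that high, libraries of 1 animal counted as more independent than they were. The 252 therefore cannot be set beside the counts with the animal as the unit. With runs of 8 animal numbers as a replicate block, 0 were called (1281 at an unadjusted p under 0.05). The labels do not say that runs mark a litter, cage or batch. Of 14 runs, 11 held both treatments. The deviations of 14 pairs within runs correlated at -0.286 to 0.407 (median 0.013, 3 over 0.1). Correlations of so few pairs cannot decide whether the numbers pair the animals. Depth limits low transcripts such as Slc2a2, and 14 animals a group limit small differences.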

Other observations

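Values of 3 further genes outside the rule for named genes are given here, chosen after they were seen. Col26a1, a collagen gene, was above 7 CPM in 7 of 14 SAFit2 animals, 0 of 14 vehicle animals and 1 of 13 Ctrl_Veh animals (log2 0.79, SE 0.203, edgeR adjusted p = 0.364). AK157302 was above 5 CPM in 3 of 14 vehicle animals, 0 of 14 SAFit2 animals and 1 of 13 Ctrl_Veh animals, and had the lowest log2 fold change of all tested genes (-2.30, SE 0.578, edgeR adjusted p = 0.331). Stom, which encodes the membrane protein stomatin, had 3.29, 6.05 and 9.15 CPM in ELA_Veh and 5.74, 8.49 and 10.8 CPM in ELA_SAFit2 (log2 0.48, SE 0.124, edgeR adjusted p = 0.364).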
